A study of Oryza sativa with 24 samples.

Results

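Young panicles of the indica rice variety IR64 were profiled by RNA sequencing through pollen development, and the 200 genes described here stood higher at stages 6 and 7 than at stages 5 and 8. They were selected on their own values. For each of 36099 gene identifiers the count was divided by the library's total and scaled to a common total (CPM), and the mean over the libraries of a stage was raised by 0.5. A gene qualified when its stage 6 and stage 7 means were both at least 3, lay within 2-fold of each other, and when the lower of them was at least 2 times the higher of the stage 5 and stage 8 means. That last ratio is called R below. 218 genes qualified and the 200 with the highest R were kept, so the difference between stages is how the genes were chosen and is described without a test.

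The compared plants were a tps2/tps3/tps6 triple gene-edited mutant (MT) and unedited wild type (WT), both in the IR64 background. Panicles were taken when pollen mother cells form (stage 5), at their meiosis (stage 6), while pollen fills (stage 7) and at pollen maturation (stage 8). The labels name 3 libraries per genotype and stage, and they do not say how many edited lines the mutant libraries came from. The sampled tissue was the whole young panicle, so fewer cells of a type and less RNA per cell cannot be told apart.

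In the anther, pollen mother cells pass through meiosis to give microspores, while the tapetum, the innermost layer of the anther wall, feeds them and supplies material for the pollen wall before it breaks down. Maturing grains then store starch. The edited genes belong to the class II trehalose phosphate synthases, relatives of the enzyme that makes trehalose 6-phosphate, a sugar phosphate known in plants as a signal of sucrose supply. Many genes of both cell types are known to be active for only a stretch of this course.

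The deposited identifiers are not paired with gene names, and 0 of them, members included, matched the rice reference table used here. Roles of the 200 genes, cell type markers and the edited genes themselves could therefore not be looked up, and the genes are given by identifier. Comparison of all 276 pairs of the 24 columns found 3 pairs, each with the same replicate number under MT and WT, that were identical in each of the 36099 rows: replicate 3 at stage 6 and replicates 2 and 3 at stage 7. Each such pair is treated as 1 shared library. This leaves 21 libraries, of which 18 have one genotype: 3 MT and 3 WT at stage 5, 2 and 2 at stage 6, 1 and 1 at stage 7, and 3 and 3 at stage 8. The selection used all 21, so the stage 7 mean rests on 1 MT, 1 WT and 2 shared libraries. Total counts per library ranged from 11398861 to 15860931, and the number of genes with a count was lowest, at 22410, in MT stage 8 replicate 2.

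The 200 genes were mostly of modest level and formed a plateau across meiosis and filling. Their median stage mean was 2.46 CPM at stage 5, 13.7 CPM at stage 6, 12.7 CPM at stage 7 and 3.07 CPM at stage 8. R ranged from 2.08 to 8.82, with a median of 2.74 and quartiles of 2.34 and 3.73. It was at least 3 for 85 genes and at least 4 for 37. Stage 6 was the higher of the 2 raised stages for 109 genes and stage 7 for 91, and in 98 genes the pair lay within 1.2-fold. Stage 8 stood above stage 5 in 118 genes and below it in 82. Both raised means, with the added 0.5, were under 10 in 71 genes and over 100 in 22.

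Together the 200 genes took at most 1.10% of all counts in any library. At stage 5 their share was 0.234%, 0.192% and 0.197% in MT replicates 1, 2 and 3, against 0.171%, 0.324% and 0.288% in WT. At stage 6 it was 0.968% and 0.924% in MT, against 0.849% and 1.06% in WT, with 0.943% in the shared library. At stage 7 it was 0.921% in MT, against 0.681% in WT, with 1.08% and 1.10% in the shared libraries. At stage 8 it was 0.170%, 0.112% and 0.264% in MT, against 0.219%, 0.287% and 0.252% in WT. The MT and WT libraries overlapped at stages 5, 6 and 8. The WT library was the lowest of the 4 at stage 7, and MT replicate 2 was the lowest of the 6 at stage 8.

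**Figure D1:**
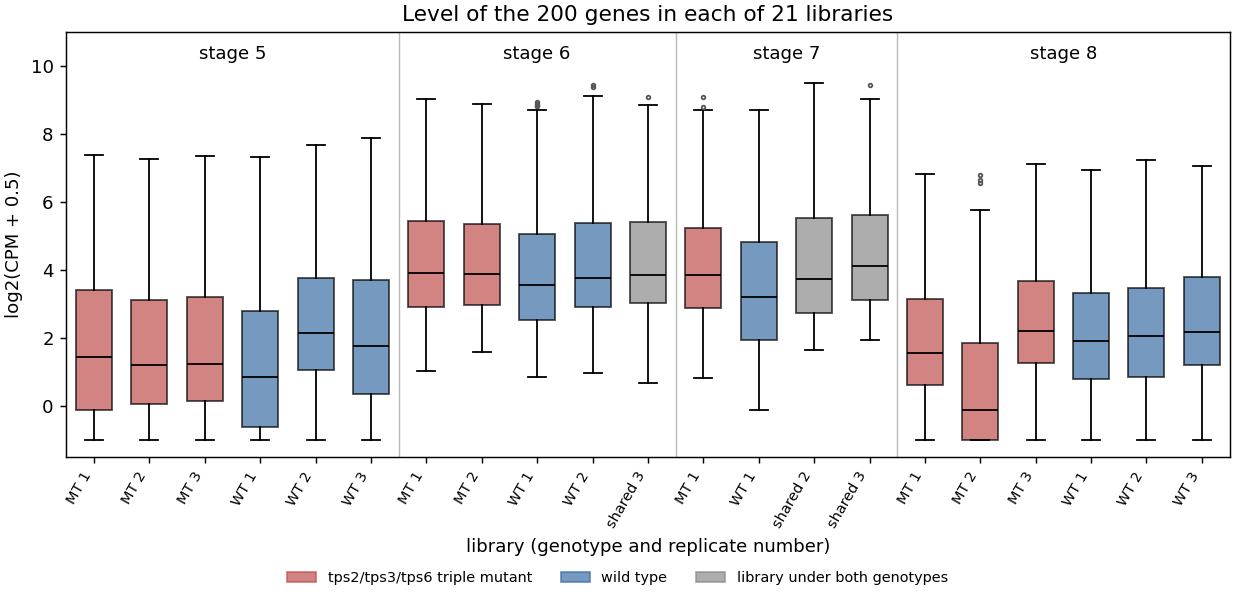
Level of the 200 genes in each of the 21 libraries, as log2(CPM + 0.5) by stage, with the triple mutant in red, wild type in blue and the libraries under both genotypes in grey. Boxes span the quartiles with the median as a line, whiskers reach the last value within 1.5 box lengths, and MT stage 8 replicate 2 has the lowest median, -0.13.

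Every one of the 200 genes had a count in each of the 9 libraries of stages 6 and 7. Outside these stages many dropped to 0, since only 102 had a count in all 21 libraries. The selection asked for raised means at stages 6 and 7 and lower ones at stages 5 and 8. The place of the zeros thus follows largely from it, and no genes of like level were compared. Of the 200, 57 had no count in at least 1 stage 5 library and 91 had none in at least 1 stage 8 library, while none was at 0 throughout either stage. At stage 8, MT replicate 2 alone accounted for 65 of the 91. It had 90 of the genes at 0, against 13 and 3 in the other MT replicates and 2 to 11 in WT. Of all 36099 identifiers, 22410 had a count in MT replicate 2, against 25059 and 23894 in the other MT replicates and 24382 to 25143 in WT. At stage 5, replicates 1, 2 and 3 had 17, 18 and 5 of the genes at 0 in MT, against 45, 2 and 13 in WT, so WT replicate 1 had the most. For 121 of the 200 (60.5%) every stage 6 and 7 library lay above every stage 5 and 8 library, against 0.989% of the 25483 genes that passed the low-count filter; the selection used this contrast, so nothing is read from that difference.

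**Figure D2:**
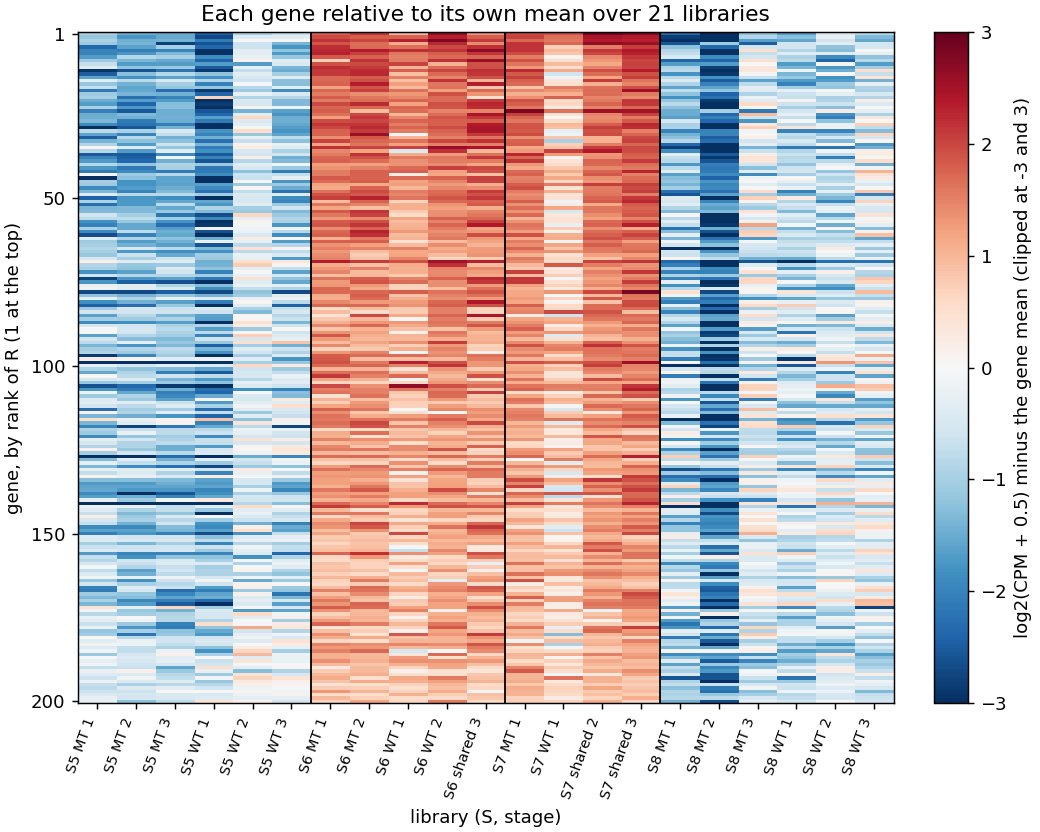
Each of the 200 genes (ordered down by R) in each of the 21 libraries, as log2(CPM + 0.5) minus the gene's own mean over the libraries, clipped at the ends of the colour scale. The block of stages 6 and 7 is mostly red by the choice of the genes, which used stage means and not single libraries. MT stage 8 replicate 2 is the darkest blue column. WT stage 7 replicate 1 is paler than its neighbours and holds some values below the gene's own mean, as in OsIR64_01g0028910 (0.734 CPM).

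The highest R, 8.82, belonged to OsIR64_10g0008320. It had 3.35, 2.19 and 2.09 CPM in MT at stage 5, against 0.865, 3.33 and 4.06 CPM in WT. At stage 6 it had 25.3 and 32.7 CPM in MT, against 14.1 and 46.1 CPM in WT, and at stage 7 29.0 CPM in MT, against 27.6 CPM in WT. The shared libraries held 18.1 CPM at stage 6 and 53.1 and 50.6 CPM at stage 7, the highest values of this gene. At stage 8 it had 1.01, 0 and 2.76 CPM in MT, against 1.88, 4.97 and 3.75 CPM in WT. MT and WT overlapped at stages 5, 6 and 8.

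OsIR64_05g0005920 combined the next R, 8.28, with the highest level of the 200. Its 2 MT libraries at stage 6 held 517 and 472 CPM, against 457 and 671 CPM in WT, and at stage 7 it had 547 CPM in MT, against 417 CPM in WT. The shared libraries had 462 CPM at stage 6 and 730 and 693 CPM at stage 7. All 9 libraries lay far above those of stages 5 and 8. At stage 5 there were 60.8, 39.5 and 46.4 CPM in MT, against 20.1, 101 and 103 CPM in WT. At stage 8 there were 18.4, 9.49 and 72.4 CPM in MT, against 55.9, 112 and 52.8 CPM in WT, so that the lowest 2 values of that stage were MT replicates.

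OsIR64_05g0005980, a close neighbour of it in the identifier order, was the next in level. At stage 6 it had 449 and 405 CPM in MT, against 496 and 699 CPM in WT, with both WT libraries above both MT libraries. At stage 7 it had 332 CPM in MT, against 298 CPM in WT, and 523 and 500 CPM in the shared libraries. At stage 8 it had 10.4, 2.75 and 32.1 CPM in MT, against 33.7, 68.2 and 34.3 CPM in WT, so that every MT library lay below every WT library. Its stage 8 difference did not pass the threshold (log2 difference MT minus WT -1.73, SE 0.73, edgeR adjusted p = 0.333).

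Within the plateau some genes leaned to filling and others to meiosis. OsIR64_02g0009680 leaned most to stage 7, with a stage 7 mean 1.91 times the stage 6 mean. At stage 6 it had 15.2 and 8.06 CPM in MT, against 13.7 and 11.8 CPM in WT, and at stage 7 31.2 CPM in MT, against 13.2 CPM in WT. The shared stage 7 libraries, at 25.6 and 24.6 CPM, were also above the WT library, which stood within the range of the stage 6 libraries. OsIR64_02g0018060 was next, with a ratio of 1.87. It had 261 CPM at stage 7 in MT, against 158 CPM in WT, and 297 and 256 CPM in the shared libraries. Its stage 6 values were 157 and 140 CPM in MT, against 87.6 and 152 CPM in WT.

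OsIR64_08g0004080 leaned most to stage 6, with a ratio of stage 7 to stage 6 of 0.622. It had 6.49 and 10.0 CPM at stage 6 in MT, against 4.37 and 5.58 CPM in WT, and 6.10 CPM at stage 7 in MT, against 2.36 CPM in WT. At both stages the MT libraries were higher than the WT ones. The shared libraries held 9.94 CPM at stage 6 and 3.78 and 5.12 CPM at stage 7. Single libraries of stages 6 and 7 overlapped. OsIR64_07g0011820 followed at 0.623. It had 17.2 and 16.0 CPM at stage 6 in MT, against 9.66 and 18.5 CPM in WT, and 7.76 CPM at stage 7 in MT, against 6.20 CPM in WT. The shared libraries held 23.5 CPM at stage 6 and 9.68 and 17.8 CPM at stage 7, so single libraries of these stages overlapped for this gene too. Its stage 6 values overlapped between the genotypes.

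**Figure D3:**
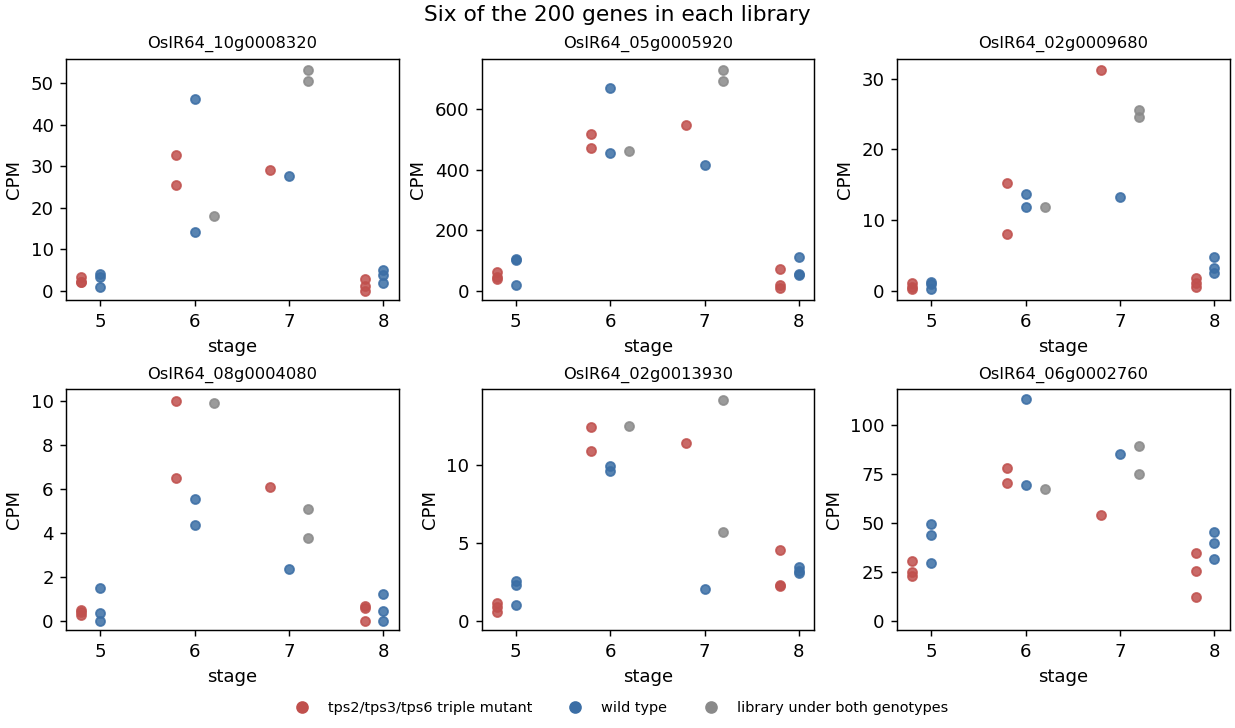
CPM of 6 of the 200 genes in each library against stage, with triple mutant points in red, wild type in blue and libraries under both genotypes in grey. In OsIR64_10g0008320 and OsIR64_05g0005920 every stage 6 and 7 library lies above every stage 5 and 8 library, and OsIR64_06g0002760 has 12.1 to 49.3 CPM at stages 5 and 8.

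At the edge of the list the values changed smoothly. OsIR64_07g0000390, the last gene taken, had stage means of 8.13, 19.9, 17.4 and 5.97 CPM at stages 5 to 8. OsIR64_02g0018750, the first left out, had 2.24, 7.91, 7.32 and 3.27 CPM. Their R values were 2.077 and 2.073, so the limit of 200 separates genes that hardly differ in R.

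Some of the 200 genes sat beside each other in the identifier order, which the selection did not use. Of the 200, 40 (20%) had another of the 200 as the preceding or following row of the table. The 200 make up 0.554% of all rows, a share for a single row, while the count looked on both sides of each gene. Most of the 40 were in 14 runs of 2 genes. The longest run held 5 genes, OsIR64_05g0020820 to OsIR64_05g0020860, with R from 2.16 to 4.25, and its summed level was 3.39, 36.0, 32.5 and 7.26 CPM at stages 5 to 8. A run of 4, OsIR64_07g0024390 to OsIR64_07g0024420, had R from 3.83 to 6.14 and summed levels of 27.9, 293, 227 and 41.7 CPM. A run of 3, OsIR64_10g0010750 to OsIR64_10g0010770, had R from 3.81 to 5.61. Whether neighbours are near-identical copies that share reads was not tested, as no sequences were used here. By the number that follows the variety name in the identifier, 26 genes carried 05 (13% of the 200, against 7.97% of all rows) and 23 carried 07 (11.5%, against 8.08%), while fewer carried 04 (6%, against 8.68%), 06 (5%, against 8.10%) and 11 (4.5%, against 7.00%). These fields were picked as the farthest apart in each direction.

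The genotypes were then compared, with edgeR's quasi-likelihood test on the 18 libraries of one genotype over 25483 genes and Benjamini-Hochberg adjustment over all of them. All 200 genes passed the low-count filter. The selection averaged over both genotypes, but the same libraries set it. Differences below are on the log2 scale, MT minus WT, and a gene was called at an adjusted p under 0.05. No member was called at any stage. The 200 genes moved together between replicates, as given below, so shares of them with the same sign do not count independent genes.

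When pollen mother cells form, at stage 5, 0 of the 200 genes were called, against 0% of all genes, and the smallest adjusted p among them was 0.811 (edgeR). An unadjusted p under 0.05 was found for 14 of them (7%), all lower in MT, against 4.42% of all genes in either direction. The fitted difference was below 0 in 164 (82%), against 48.7% of all genes, and its median was -0.46, against 0 for all genes. In 9 genes (4.5%) all MT libraries lay below all WT libraries, against 6.31% of all genes, and in 2 (1%) they lay above, against 8.15%. The WT libraries themselves lay on both sides of MT: the median of the 200 was 2.18, 1.80 and 1.83 CPM in MT, against 1.30, 3.87 and 2.85 CPM in WT. WT replicate 2 was the highest of the 6 libraries in 126 genes (63%), against 20.8% of all genes. Without that library the median difference was -0.00, and without WT replicate 1 it was -0.81.

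At meiosis, stage 6, the typical difference was near 0. None of the 200 was called, against 0% of all genes, and the smallest adjusted p was 1 (edgeR). Before adjustment 3 genes (1.5%) had p under 0.05, against 2.96% of all genes, and in a fit of the stage 6 libraries alone 7 (3.5%) had, against 3.64%. The difference was above 0 in 115 genes (57.5%), against 45.3% of all genes, with a median of 0.07, against -0.01 for all genes. The median of the 200 was 14.7 and 14.3 CPM in MT, against 11.2 and 13.1 CPM in WT, with 13.9 CPM in the shared library. The median difference turned to -0.07 without WT replicate 1 and was 0.24 without WT replicate 2, so its direction rests on single libraries.

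While pollen fills, at stage 7, the single MT library stood above the single WT library for most of the 200 genes. The difference was above 0 in 177 (88.5%), against 47.4% of all genes, with a median of 0.63, against 0 for all genes. With 1 library per genotype there is no replicate at this stage and the spread is borrowed from the other groups. None of the 200 was called, against 0.00392% of all genes (1 gene), and the smallest adjusted p was 0.465 (edgeR). Before adjustment 4 genes (2%) had p under 0.05, against 7.39% of all genes. The WT library was the lowest of the 4 stage 7 libraries in 168 genes (84%), against 31.6% of all genes. The median of the 200 was 13.9 CPM in the MT library, against 8.77 CPM in the WT library, with 12.9 and 16.9 CPM in the shared ones. WT genotype and this 1 library cannot be told apart. With all 24 columns, where the shared libraries enter under both genotypes, the median difference was 0.15.

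At pollen maturation, stage 8, most of the 200 genes had a lower fitted value in MT, unevenly among the MT replicates. The difference was below 0 in 169 (84.5%), against 48.9% of all genes, with a median of -0.54, against 0.00 for all genes. None was called, against 0.00785% of all genes (2 genes), and the smallest adjusted p was 0.141 (edgeR). An unadjusted p under 0.05 was found for 26 (13%), 24 of them lower and 2 higher in MT, against 14.0% of all genes in either direction. In a fit of the stage 8 libraries alone, which tested 178 of the 200, it was found for 8 (4.49%), against 7.83%. All MT libraries lay below all WT libraries in 18 genes (9%), against 5.70% of all genes, and above them in 1 (0.5%), against 8.73%. The median of the 200 was 2.45, 0.416 and 4.05 CPM in MT, against 3.22, 3.63 and 4.02 CPM in WT. Thus MT replicate 3 was as high as the highest WT library, and MT replicate 2 was far below the rest. Replicate 2 was the lowest of the 6 libraries in 141 genes (70.5%), against 26.2% of all genes.

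The stage 8 result changed with the libraries and the tool. Without MT replicate 3, 24 genes (12%) were called lower in MT by edgeR, against 4.58% of all genes, and the median difference was -1.30. Without MT replicate 2 none was called and the median was -0.21. DESeq2 called 3 of the 200 lower (1.5%), against 1.11% of the genes to which it gave an adjusted p, and edgeR on all 24 columns called 2 (1%), against 0.303%. MT replicate 2 also had the fewest genes with a count, and its most abundant gene took 1.52% of its counts, against 0.571% to 0.865% in the other 20 libraries. Its total of 12015912 counts was within the range of the others, and the median of all genes tested was 12.5 CPM there, against 13.5 and 14.5 CPM in the other MT libraries and 11.8 to 13.0 CPM in WT. The part of these features in the stage 8 difference was not tested.

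The smallest p among genes lower in MT at stage 8 was that of OsIR64_06g0028230. It had 11.8, 6.82 and 10.1 CPM in MT at stage 8, against 13.4, 19.1 and 15.5 CPM in WT, without overlap. Its log2 difference was -0.85 (SE 0.23, edgeR adjusted p = 0.141). DESeq2 gave an adjusted p of 0.0351, edgeR on all 24 columns 0.0469 and edgeR without MT replicate 3 0.0473, and over all alternatives the adjusted p ran to 0.629. At stage 5 it had 8.13, 8.51 and 7.22 CPM in MT, against 11.5, 10.6 and 14.4 CPM in WT, again without overlap (log2 difference -0.62, SE 0.23, edgeR adjusted p = 1). At stage 7 it had 71.6 CPM in MT, against 49.7 CPM in WT, the opposite order.

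The smallest p among genes higher in MT at stage 8 was that of OsIR64_07g0013070, which is near the limit of counting. It had 6, 0 and 6 counts in MT at stage 8, against 0 counts in each WT library. With a floor of 3 counts over the WT group its MT mean was at least 4.43-fold above WT. That bound is for the group mean, since MT replicate 2 was at 0 like the WT libraries, and it makes no allowance for error in the MT counts. The gene was not called (edgeR adjusted p = 0.206). At stage 6 it had 2.84 and 3.35 CPM in MT, against 1.84 and 2.98 CPM in WT. Among the 200, 2 other genes had a group without any count: OsIR64_07g0024630 in MT at stage 5 and OsIR64_05g0021220 in MT at stage 8. OsIR64_05g0021220 had 0.392, 1.83 and 0.0766 CPM in WT replicates 1, 2 and 3 at stage 8. Its WT mean of 0.768 CPM thus rests mostly on replicate 2. At that floor the WT mean was at least 9.07-fold above MT, a bound for the group mean and not for each library. OsIR64_07g0024630 was under the floor in both genotypes. With these genes at their bounds the median difference was -0.45 at stage 5 and -0.54 at stage 8.

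Averaged over the raised stages 6 and 7, the difference was above 0 in 159 of the 200 genes (79.5%), against 47.8% of all genes, with a median of 0.37, against -0.00 for all genes. None was called, against 0.00785% of all genes (2 genes), and before adjustment 3 (1.5%) had p under 0.05, against 6.09%. In a fit of the libraries of these stages alone, whose spread comes only from the stage 6 replicates, 60 (30%) had an unadjusted p under 0.05, against 7.79% of all genes, and again none of the 200 was called. The smallest p among higher genes belonged to OsIR64_02g0013930 (log2 difference 1.32, SE 0.45, edgeR adjusted p = 0.670). It had 10.9 and 12.5 CPM at stage 6 in MT, against 9.97 and 9.62 CPM in WT, and 11.4 CPM at stage 7 in MT, against 2.04 CPM in WT. The shared stage 7 libraries, at 5.74 and 14.2 CPM, both lay above the WT library. The log2 difference was 0.17 at stage 6 and 2.47 at stage 7, and with all 24 columns the mean over both was 0.31. The smallest p among lower genes belonged to OsIR64_06g0002760 (log2 difference -0.52, SE 0.31, edgeR adjusted p = 0.879). It had 70.2 and 77.9 CPM at stage 6 in MT, against 69.3 and 113 CPM in WT, and 53.9 CPM at stage 7 in MT, against 84.8 CPM in WT. Without WT stage 6 replicate 2 the difference was -0.32.

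The height of stages 6 and 7 over stages 5 and 8 was then compared between the genotypes as 1 interaction contrast, the MT log2 height minus the WT log2 height. It was above 0 in 191 of the 200 genes (95.5%), against 49.4% of all genes, with a median of 0.90, against -0.01 for all genes. The contrast is built from the stage values that set the selection, while all genes were not selected in that way. R reached 2 in 188 of the 200 in MT libraries alone and in 72 in WT libraries alone. Nothing is therefore read from the shares of this contrast beside those of all genes. No gene passed the threshold, against 0% of all genes, and the smallest adjusted p among the 200 was 1 (edgeR). An unadjusted p under 0.05 was found for 19 genes (9.5%), all higher in MT, against 4.25% of all genes in either direction. This contrast contains the WT stage 7 library, the WT stage 5 replicates and MT stage 8 replicate 2 described above. Its median was 0.67 without WT stage 5 replicate 2, 0.76 without MT stage 8 replicate 2 and 1.32 without MT stage 8 replicate 3. Between replicates of a group, the library medians of the 200 genes had a pooled SD of 0.62 log2 units over the groups with replicates. That SD was 0.47 at stage 5 and 0.85 at stage 8. OsIR64_02g0013930 had the smallest p among genes with a larger height in MT (1.99, SE 0.55, edgeR adjusted p = 1), and OsIR64_07g0013070 among those with a smaller one (edgeR adjusted p = 1).

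**Figure D4:**
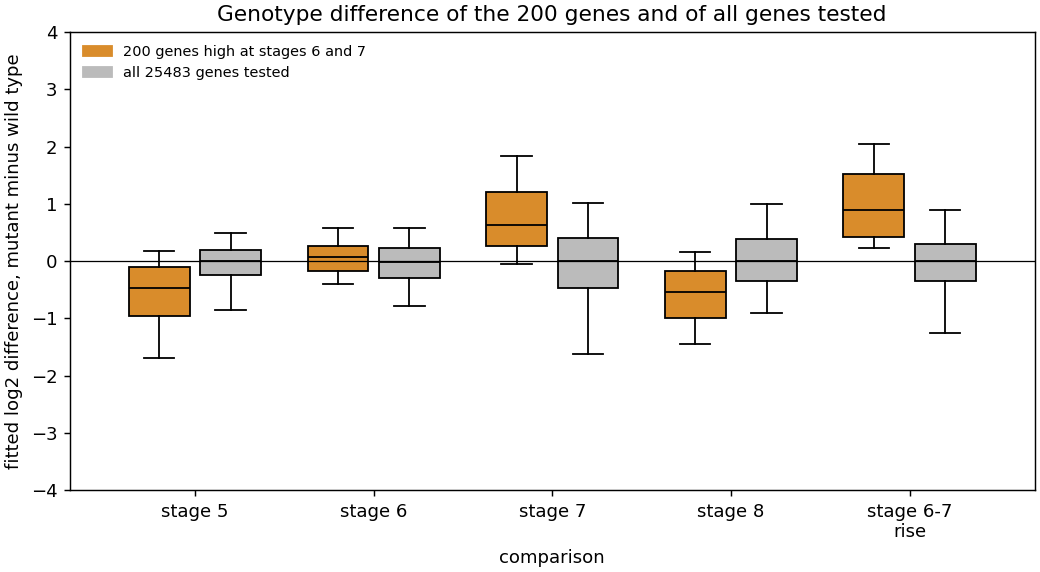
Fitted log2 difference, MT minus WT, for the 200 genes (orange) and all 25483 genes tested (grey) at each stage and for the stage 6 and 7 height. Boxes span the quartiles with the median as a line and whiskers the 10th to 90th percentiles; the orange medians are -0.46, 0.07, 0.63, -0.54 and 0.90, and the grey ones are near 0.

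Computed in each genotype alone, R had a median of 3.26 in the MT libraries and 1.79 in the WT libraries. It was higher in MT in 186 of the 200 genes and higher in WT in 14. It reached 2 in 188 genes in MT, in 72 in WT and in 70 in both. R was chosen high over both genotypes together, so these values describe how each genotype contributed and are given without a test. R by genotype was not compared with that of all genes, so its difference is not shown to be particular to the 200. OsIR64_10g0008320 had an R of 9.69 in MT, against 6.96 in WT, and OsIR64_05g0005920 had 10.0 in MT, against 5.55 in WT. Without MT stage 8 replicate 2 the median was 2.77 in MT, and R was higher in MT in 176 genes. With WT stage 5 replicate 2 also left out it was higher in 172. With the stage 6 mean alone over the higher of stages 5 and 8, which leaves out the single stage 7 libraries, the ratio had a median of 3.89 in MT and 2.75 in WT, was higher in MT in 173 genes, and reached 2 in 196 genes in MT and 173 in WT. This ratio still holds MT stage 8 replicate 2 and WT stage 5 replicate 2. The median log2 difference at stage 6 itself was 0.07.

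**Figure D5:**
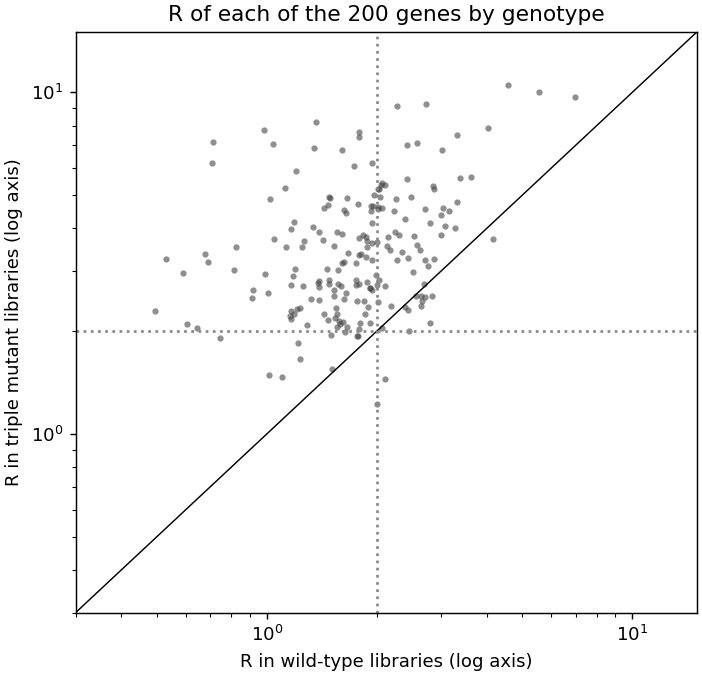
R of each of the 200 genes in the triple mutant libraries (vertical, log axis) against the wild-type libraries (horizontal, log axis), with the line of equality and dotted lines at 2. In 186 genes the point lies above the line, and 188 reach 2 in the mutant, against 72 in wild type.

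The plateau was also uneven between the MT and WT libraries. The stage 7 mean over the stage 6 mean had a median of 0.954 in MT and 0.661 in WT, and stage 6 was the higher in 120 genes in MT and in 165 in WT. The stage 8 mean over the stage 7 mean had a median of 0.217 in MT and 0.457 in WT. All of these ratios hold the single stage 7 library of each genotype. They were not compared with those of all genes, so their difference is not shown to be particular to the 200. When the selection was repeated without the 3 shared libraries, 169 genes qualified, 151 of them among the 200. The median differences of those 169 were -0.54, 0.03, 0.59 and -0.65 at stages 5 to 8 and 0.93 for the height.

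The genotype difference was also summarised by level. The median height difference was 1.19 in the 79 genes with a mean of the raised stages under 10, 0.93 in the 75 from 10 to 50 and 0.57 in the 46 at 50 and over. The median R of these groups was 2.70, 2.87 and 2.67. In MT stage 8 replicate 2, 62 of the 79, 26 of the 75 and 2 of the 46 had no count, and the median biological coefficient of variation was 75.01%, 52.4% and 31.9%. At stage 8 the median difference was -0.65, -0.52 and -0.54 in the same order.

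The spread of the 200 genes between replicates was wide. Their median biological coefficient of variation was 58.4%, against 30.1% for all genes tested and 31.5% for the 7431 genes whose mean level lay within the quartiles of the 200. That level is the mean over all 21 libraries. The 200 were lower at stages 5 and 8, which hold most of the replicates, so they were not matched in level there. Replicates of a group also moved together across the genes, a feature that the selection did not use directly. The deviations of log2 CPM from the group mean, over the 16 libraries of stages 5, 6 and 8, had a mean pairwise Pearson correlation of 0.40 among the 200 genes, against 0.0027 among all genes. The libraries are shared by all genes, so these values are a description with no p. No set of genes matched in level, spread or stage profile was compared, so the correlation is not shown to be particular to the 200. The value was 0.40 within stage 5, 0.24 within stage 6 and 0.40 within stage 8. Without MT stage 8 replicate 2 it was 0.29, and over stages 5 and 6 alone 0.37. In 147 genes the deviations correlated at over 0.5 with those of the summed other members, in 13 they correlated below 0, and the median was 0.73. A library that was low for 1 of the genes was thus usually low for most of them, as in MT stage 8 replicate 2 and WT stage 5 replicate 1.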

How the data were processed

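The authors deposited raw counts per gene for 24 columns. Per the series design text, reads were aligned to the IR64 genome by STAR and counted by HTSeq-count; the submitters' processing notes list Trimmomatic 0.39 and kallisto, without a role for kallisto. Nothing used here gives the strand setting or the handling of reads from near-identical genes, so counts of paralogs and of overlapping genes are uncertain. All results here were computed from these counts. The 3 shared libraries entered the selection once and no genotype test. edgeR 4.0.16 (R 4.3.3) fitted 18 libraries in 8 groups (quasi-likelihood, robust, TMM, filterByExpr), leaving 25483 genes and 10 residual degrees of freedom. p-values were adjusted by Benjamini-Hochberg over all genes, and standard errors came from the fold change and its F. CPM are of column totals, and within-group deviations used TMM-scaled log2 CPM. The design text calls the replicates independent. The fits were tested on simulated counts. Total counts from 11398861 to 15860931 set the counting precision, and bounds of 3 counts cover counting error only.

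The 200 genes, the tests and the lists were chosen with earlier results of these data known. Genes were named by rule: the 2 highest R and the 2 highest levels, the 2 highest and 2 lowest stage 7 over stage 6 ratios, the genes at the edge of the list, and, where none was called, the smallest p each way at stage 8, for stages 6 and 7 together and for their height. The runs of neighbours, the genes with a group at 0 and the added leave-outs were chosen after their values were seen. Alternatives tried were DESeq2 1.42.0, RLE scaling, all genes kept whatever their counts, all 24 columns, only the libraries compared, a replicate block, other settings of the selection, and leaving out each library.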

Additional observations from a re-analysis of the deposited data

Results flagged for a closer look

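The 4 to 6 libraries of each stage were examined for the median of the 200 genes and for each named gene, 56 sets in all, and 2 sets had a library standing apart from the others by Dixon's criterion, and chance gives such a result in about 1 set in 20. The median level of the 200 genes in MT stage 8 replicate 2 was -0.126 as log2(CPM + 0.5), against 1.56 to 2.19 in the other 5 stage 8 libraries. OsIR64_06g0002760 stood at 6.82 on the same scale in WT stage 6 replicate 2, against 6.09 to 6.29 in the other 4 stage 6 libraries.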

How the results depend on the processing

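The count of genes called at stage 8 was 3 with DESeq2, 2 with all 24 columns and 0 to 24 when 1 library was left out, the 24 being without MT stage 8 replicate 3. At the other stages and for both combined contrasts it was 0 under every alternative run. The median difference at stage 6 ranged from -0.07 to 0.24 when 1 library was left out (-0.073 without WT replicate 1, which turned its direction). With all 24 columns, which hold the shared libraries under both genotypes and so shrink the difference by construction, the median was 0.15 at stage 7 and 0.11 for stages 6 and 7 together. On MT libraries alone 284 genes qualified before the limit, 180 of them among the 200. On WT libraries alone 80 qualified, 60 of them among the 200. With R of at least 3 the selection gave 85 genes. Without any 1 library 174 to 195 of the 200 stayed in the list. The within-group correlation ranged from 0.29 to 0.43 when 1 library was left out, an alternative chosen after the data were seen, as were the settings of R by genotype. The replicate block gave medians of -0.30, 0.09, 0.63 and -0.86 at stages 5 to 8 and 0.93 for the height, with 0 calls. Same-numbered MT and WT libraries correlated in their deviations at 0.01 to 0.12, over 0.1 in 2 of 8 pairs. Those 2 are the stage 6 pairs, whose values are equal by construction with 2 libraries per group. Different-numbered pairs ran from -0.25 to 0.22, and the numbers were not taken as pairs. Stage 7 and the height have no leave-out of a stage 7 library and no fit of the compared libraries alone. Stage 7 has 1 library per genotype, and low counts limit the members under 10 most.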
